A study of Bos taurus with 147 samples.

Results

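Expression in longissimus dorsi, the long back muscle, was compared between Japanese Black and Holstein cattle at a time that the labels call T2. The comparison holds 4 of the 147 arrays of the series, chosen by their labels alone: those whose channels held Japanese Black and Holstein muscle RNA of T2, numbered as replicates 1 to 4. Each array was a cDNA array from bovine muscle and fat libraries, with 19200 elements that stand for clones printed as neighbouring duplicates, and both breeds were hybridised to it together, with a red (Cy5) and a green (Cy3) dye. Japanese Black RNA carried Cy5 on replicates 2 and 4, and Holstein RNA carried it on replicates 1 and 3. The 4 matching arrays of T1 and the 4 of T3 were used to estimate the spread and to compare the breed difference between times. The labels used here give no age, sex, feeding or treatment for either breed, do not say what T1, T2 and T3 are, and do not say whether replicates were separate animals, pools or repeated hybridisations of the same RNA, so that p-values may measure only technical spread. In whole muscle, fewer cells of a type and less RNA per cell cannot be told apart.

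Japanese Black is a Wagyu breed, known for the fat it lays down inside its muscles, whereas Holstein is a dairy breed. Longissimus muscle is mainly muscle fibres, which carry the contractile proteins and the enzymes of energy supply. Between the fibres lie fibroblasts, which secrete the collagens and other proteins of the connective tissue, and fat cells, which store triglyceride and are marked by genes such as *ADIPOQ*, *PLIN1* and *FABP4*. Type I collagen, the main fibrillar collagen, is built from the chains of *COL1A1* and *COL1A2*, and type III collagen, which accompanies it in soft tissue, from the chain of *COL3A1*.

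All values are log2 ratios of Japanese Black over Holstein, so that a value of 1 stands for a doubling of the ratio and a negative value for a lower signal in Japanese Black. The direction rests on the dyes in the labels and is likely rather than certain, since the deposited table does not state which dye was divided by which. In another table of the same series, on 6 arrays that set fetal against newborn longissimus muscle, the same reading of the dyes gave *COL1A1* and *COL3A1* higher on the fetal side of every array. *CKM* was higher on the newborn side of all 6, by 0.04 on 1 of them, and *ENO3* on 5, with 0.04 on the fetal side of the other. Ratios hold no level, so that the muscle identity of the samples and the amount of other cell types could not be checked from the markers. The arrays gave 17544, 17701, 15591 and 15927 usable elements in the order of the replicates, and the number of arrays limits the precision. Replicates 3 and 4 stood apart from replicates 1 and 2. Their interquartile ranges of the log2 ratio were 1.50 and 1.16, against 0.88 and 0.79 for replicates 1 and 2, while their duplicate spots correlated at 0.937 and 0.927 (Spearman), against 0.705 and 0.655. Replicates 3 and 4 had opposite dyes, yet their ratios of Cy5 over Cy3 correlated at 0.52 over 6476 features, which is -0.52 once they are signed by breed. The other dye-swapped pairs correlated at 0.03 to 0.17 when signed by breed (Pearson, over features, which are not independent replicates). Pairs of the same dye orientation correlated at -0.05 (replicates 1 and 3) and 0.08 (replicates 2 and 4), so that no dye pattern common to all 4 arrays showed. The model held a dye term common to all arrays, and whether it removed the pattern of replicates 3 and 4 was not tested.

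At T2, 20 of 7106 features passed an adjusted p of 0.05 (limma, Benjamini-Hochberg), or 0.281% of those tested. A feature is a named gene, averaged over its spots, or an unnamed pair of spots. Of the 20 features, 6 (0.0844%) were higher and 14 (0.197%) lower in Japanese Black. All 6 named genes among them, out of 811 tested (0.74%), were lower in Japanese Black, and no named gene was higher. By the same model 58 features passed at T1 (0.816%) and 21 at T3 (0.296%), with 12 (1.48%) and 4 (0.493%) named genes. The 6 genes of T2 were *PFDN5*, *COL1A1*, *COL1A2*, *DDIT4*, *GSTM3* and *ARF4*. The unnamed features comprised 6 that were higher, at 0.92 to 1.09, and 8 that were lower, at -3.29 to -0.88. At an unadjusted p under 0.05 there were 879 features, 83 of them named. The count and its split depended on the processing. It was 164 with arrays scaled to a common spread (76 higher, 88 lower), 223 among 3958 features with values on all 12 arrays (117 higher, 106 lower) and 243 with array weights (105 higher, 138 lower). With single arrays left out it was 11, 6, 9 and 10 features without replicate 1, 2, 3 or 4. Without replicates 3 and 4 together it was 3, and without replicates 1 and 2 it was 4, with 1 and 2 named genes (settings added after the data had been seen). Fitted on the 4 arrays of T2 alone, no feature passed, although 567 had an unadjusted p under 0.05.

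**Figure D1:**
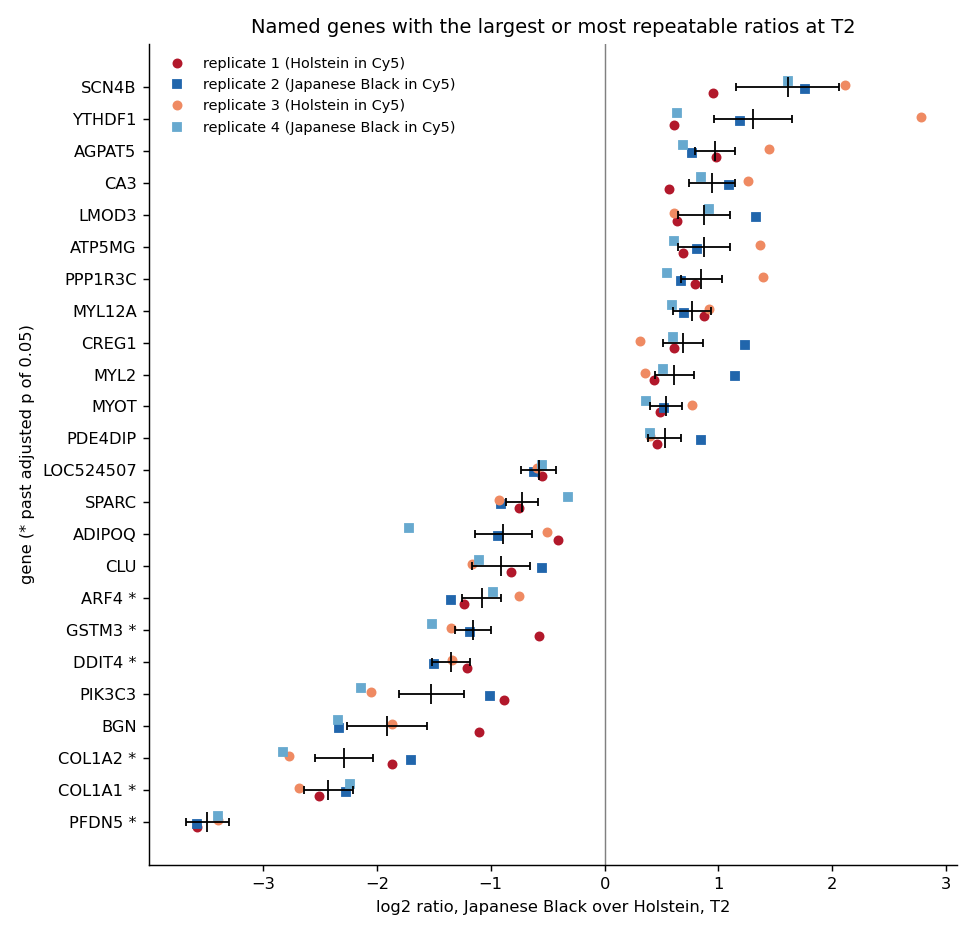
Log2 ratios of Japanese Black over Holstein on each of the 4 T2 arrays (points, shaped by dye orientation) for the named genes past the threshold (asterisks) and those with the smallest p among genes of the same sign on every array measured. The black bars give the fitted ratio and its standard error. *PFDN5*, *COL1A1* and *COL1A2* lie farthest below 0, and no gene on the right passed the threshold.

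Type I collagen RNA was lower in Japanese Black at T2. *COL1A1* had log2 ratios of -2.51, -2.27, -2.68 and -2.24 on replicates 1 to 4, a mean of -2.43 (SE 0.22), or 0.186 of the Holstein signal (adjusted p 0.00188). As means over clones, the replicates lay close together and far below 0 in both dye orientations. The single clones did not: on replicate 4 they ran from -6.49 to 3.77. Several clones had no value on that array, so that the clones averaged differed between arrays. *COL1A2* had -1.87, -1.70, -2.77 and -2.82, a mean of -2.29 (SE 0.25), or 0.204 of the Holstein signal (adjusted p 0.00525). Its ratios were deeper on replicates 3 and 4, the arrays of wider spread. Both genes passed the threshold with any 1 of the 4 arrays left out. With replicates 3 and 4 left out, *COL1A1* was -2.39 (adjusted p 0.176) and *COL1A2* -1.78 (adjusted p 0.249). With replicates 1 and 2 left out, they were -2.46 (adjusted p 0.0726) and -2.80 (adjusted p 0.0257).

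*COL3A1* did not share that value. Its log2 ratios were -0.02, -0.06, -0.11 and -0.06, with a mean of -0.06 and a 95% interval of -0.42 to 0.29 (adjusted p 0.96). The interval lies above the whole intervals of *COL1A1*, -2.91 to -1.94, and of *COL1A2*, -2.85 to -1.73. The difference between the genes was not tested. *COL3A1* is not among the genes that the naming rule gives and was singled out after its values had been seen. Of the 16 collagens listed, 7 were measured, of which 2 were lower past the threshold, none higher and 6 negative. Among the 811 named genes, 6 (0.74%) were lower past the threshold and 409 were negative. The median over the collagens was -0.38, against 0.00 over all features. That median ran from -0.70 without replicate 4 to 0.017 without replicate 2. On the single arrays the medians were -0.59, -0.73, -2.41 and -0.24, all negative. Of 26 list medians, 16 took both signs when single T2 arrays were left out. The remaining collagens, *COL4A1*, *COL5A3*, *COL6A2* and *COL12A1*, had 1 clone each and ratios that scattered widely. *COL5A3*, a minor fibrillar collagen, had 0.21, -2.41 and 7.31 on the 3 arrays that measured it.

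The clones of *COL1A1* fell into separate ranges. Of its 35 clones, 34 had a value at T2, and their means ran from -4.76 to 0.67 with a median of -3.35. In 21 clones the mean was -2.71 or lower, in the other 13 it was -1.41 or higher, and no clone lay between. The clones were split after their values had been seen, and no test was made between them. In 22 clones the ratio was negative on every T2 array that measured them, and in no clone was it positive on every array. The gene value of -2.43 is thus a mean over clones of both ranges, and the median over its single elements was -3.68. *COL1A2* showed the same spread over its 9 clones, at -4.31 to 0.38, with 7 clones at -2.16 or lower and 2 at -0.43 and 0.38. The 29 clones of *COL3A1* had a median of -0.09 and means of -1.04 to 2.02, of which 7 were positive. Clones carry one gene name here through the array annotation, and a wrongly named clone or one that binds RNA of a related gene could not be recognised from the ratios.

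**Figure D2:**
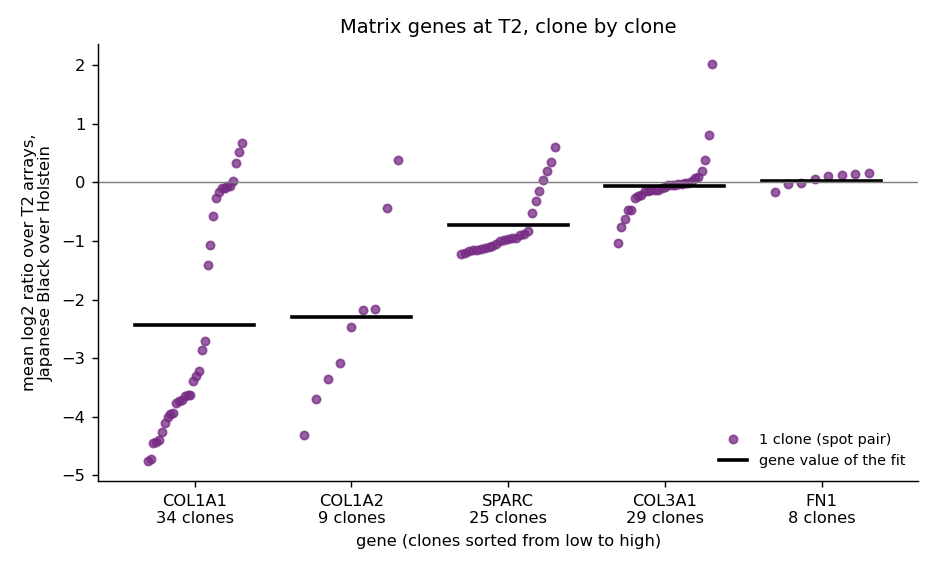
Mean log2 ratio of Japanese Black over Holstein over the T2 arrays for each clone of 5 matrix genes, sorted from low to high, with the gene value as a black line. *COL1A1* clones lie either at -2.71 and below or at -1.41 and above, whereas most *COL3A1* clones lie near 0.

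No other gene of the matrix passed the threshold. *BGN* encodes biglycan, a small proteoglycan that binds collagen, and had -1.11, -2.33, -1.87 and -2.35 on its 1 clone, a mean of -1.91 (SE 0.35, adjusted p 0.0762). *SPARC*, a secreted glycoprotein that binds collagen, had -0.75, -0.91, -0.93 and -0.33, a mean of -0.73 (SE 0.14, adjusted p 0.0781). Its 25 clones spread like those of type I collagen on a smaller scale: 18 had means below -0.8, down to -1.23, and 4 were positive. *FN1*, which encodes fibronectin, had 0.04, -0.14, 0.48 and -0.30, with a 95% interval of -0.40 to 0.44. *FBN1*, which encodes fibrillin 1, had 0.53, -0.08, 0.36 and 1.05, a mean of 0.47 (SE 0.21, adjusted p 0.401). Over the 21 other matrix genes measured, none was past the threshold in either direction, 12 were negative and 9 positive. Their median was -0.12, and the values ran from -1.91 to 0.96. The fibroblast markers comprised 8 measured genes, of which the matrix lists also hold 7. Of these 8, 2 were lower (*COL1A1* and *COL1A2*, already counted among the collagens), none higher and 7 negative, with a median of -0.24. Among the 811 named genes, 6 (0.74%) were lower past the threshold and 409 were negative. *VIM*, which encodes the intermediate filament of mesenchymal cells, was at -0.33 with an interval of -0.90 to 0.25.

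*PFDN5* had the lowest ratio of any named gene. It encodes a subunit of prefoldin, a chaperone that hands unfolded actin and tubulin to the chaperonin. Its log2 ratios were -3.58, -3.58, -3.39 and -3.40, a mean of -3.49 (SE 0.19), or 0.0890 of the Holstein signal (adjusted p 2.49e-05). It passed the threshold with any 1 T2 array left out, without replicates 1 and 2 (adjusted p 0.00863) and without replicates 3 and 4 (adjusted p 0.0109). In a fit that added the 6 arrays between times, it was at -2.86 and did not pass (adjusted p 0.0858). It rests on 1 clone, and no second clone of the gene was there for comparison. The ratio lies within the range of the lower clones of *COL1A1*, -4.76 to -2.71, and whether the clone measured RNA of *PFDN5* was not tested. Among features without a name, the lowest past the threshold was at -3.29.

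The other named genes past the threshold had smaller ratios. *DDIT4* encodes a stress-induced inhibitor of the growth kinase complex mTORC1, and had -1.21, -1.50 and -1.34 on replicates 1 to 3, a mean of -1.35 (SE 0.17, adjusted p 0.0159). Replicate 4 gave no ratio for it and was dropped for this gene. *GSTM3*, a glutathione S-transferase, had -0.58, -1.18, -1.35 and -1.52 and a mean of -1.16 (SE 0.16, adjusted p 0.0169). Its 3 clones were negative on every array. *ARF4*, a small GTPase of the Golgi, had -1.23, -1.35, -0.75 and -0.98 and a mean of -1.08 (SE 0.17, adjusted p 0.0436). No array overlapped 0 in these genes, but the calls were less firm. *ARF4* was not past the threshold in any of the 4 fits that left out 1 array (adjusted p 0.104 to 0.226). *DDIT4* was past it only without replicate 4, which does not measure it, and *GSTM3* only without replicate 1 (adjusted p 0.0279). Without replicates 2, 3 and 4, *GSTM3* had adjusted p of 0.0985, 0.161 and 0.199, and without replicates 1, 2 and 3, *DDIT4* had 0.072, 0.184 and 0.161.

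Type I collagen and *PFDN5* differed between the breeds at T2 and not detectably at T1 or T3. *COL1A1* was at 0.01 at T1 and -0.04 at T3, and its breed difference at T2 was lower than that at T1 by 2.44 (SE 0.31, adjusted p 0.00468) and than that at T3 by 2.38 (adjusted p 0.0411). *COL1A2* was at -0.50 at T1 and -0.60 at T3, and the change from these was not past the threshold (adjusted p 0.0855 and 0.0712). *PFDN5* was at -0.67 at T1 and -0.63 at T3, and its difference at T2 was lower by 2.82 (adjusted p 0.000829) and 2.86 (adjusted p 0.00721). The comparison with T3 held 5 features past the threshold (0.0704%), all lower at T2, and *PFDN5* and *COL1A1* were the named ones. That count was 48, 2, 0 and 2 without T2 replicate 1, 2, 3 or 4. *COL1A1* passed there in 1 of these 4 fits and *PFDN5* in 3. Against T1, both genes passed in all 4.

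Arrays that compared times within a breed, 1 array for each step, gave further values for these genes, with no replicate. *PFDN5* had a log2 ratio of T2 over T1 of 3.81 in Japanese Black and 1.38 in Holstein, so that the breed ratio differed by 2.43 upward on these arrays, against the fitted change of -2.82. The direction of the change in *PFDN5* between T1 and T2 thus differed between the 2 sets of arrays. *COL1A1* had a log2 ratio of T2 over T1 of 0.68 in Japanese Black and 1.70 in Holstein. For *COL1A1*, T3 over T2 was -0.15 in Japanese Black and -1.61 in Holstein. For *COL1A2*, T2 over T1 was 0.60 in Japanese Black and 0.78 in Holstein, and T3 over T2 was -0.81 in Japanese Black and -1.61 in Holstein. Duplicate spots on these 4 arrays correlated at 0.538 to 0.611, below all T2 arrays of the breed comparison, and the array of T2 over T1 in Japanese Black had a median of 1.235 before centring.

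*GSTM3* and *DDIT4* had other courses. *GSTM3* was lower in Japanese Black at each time, at -1.69 at T1 (adjusted p 0.000398), -1.16 at T2 and -1.75 at T3 (adjusted p 0.00544). Its T2 value differed from neither of the others past the threshold (adjusted p 0.504 and 0.401). *DDIT4* was lower at T1, at -1.56 (adjusted p 0.000665), as well as at T2, and was at 0.05 at T3, where its change from T2 had an adjusted p of 0.0639. *ARF4* was at -0.10 at T1 and -0.12 at T3.

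**Figure D3:**
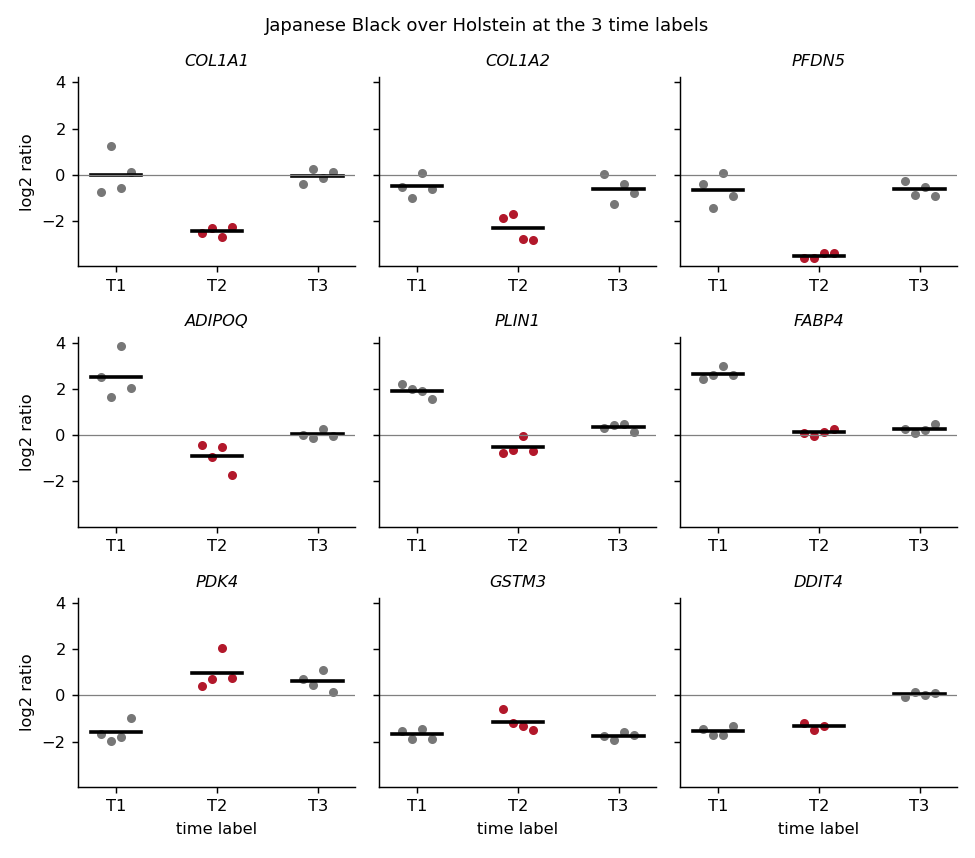
Log2 ratios of Japanese Black over Holstein on the 4 arrays of each time label (points, T2 in red) for 9 genes, with the fitted values as black lines. *COL1A1*, *COL1A2* and *PFDN5* lie farthest below 0 at T2, and the fitted values of *COL1A2* and *PFDN5* are below 0 at T1 and T3 as well. *ADIPOQ*, *PLIN1* and *FABP4* lie above 0 at T1, and *GSTM3* lies below 0 at each time.

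No fat cell gene passed the threshold at T2 in either direction. *FABP4*, the fatty acid carrier of fat cells, had 0.11, -0.06, 0.14 and 0.27, a mean of 0.11 with a 95% interval of -0.21 to 0.44 (adjusted p 0.869). Its 39 clones had means of -0.66 to 1.06. *ADIPOQ*, the fat cell hormone adiponectin, had -0.41, -0.93, -0.50 and -1.72, a mean of -0.89 (SE 0.25, adjusted p 0.149), and 9 of its 10 clones were negative. *PLIN1*, the perilipin that coats lipid droplets, had -0.76, -0.63, -0.02 and -0.70, a mean of -0.53 (SE 0.16, adjusted p 0.192). *LPL*, the lipase that frees fatty acids from circulating triglyceride, had -0.32, -0.53, -0.98 and -0.07, a mean of -0.47 (adjusted p 0.314). *RBP4*, a carrier of retinol, had -0.02, -1.92, -1.13 and -1.54, a mean of -1.15 (SE 0.76, adjusted p 0.646). Over the 18 adipocyte and fatty acid carrier genes measured of 33 listed, 12 were negative, the median was -0.39 and the values ran from -1.15 to 0.62. Without replicate 2 the median was -0.19, and over all fits that left out 1 array it ran from -0.52 to -0.19. On the single arrays the medians were -0.02, -0.43, -0.36 and -0.48. Of the 18 genes, 5 were negative on every T2 array measured and none was positive on every array, against 15.5% and 12.2% of the named genes.

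In 3 of the same genes the breed difference itself differed between T2 and T1. The medians of the 18 genes were 0.67 at T1, -0.39 at T2 and 0.32 at T3, beside medians of -0.07, 0.00 and 0.06 over all features. The breed difference was lower at T2 than at T1 in 15 of them, against 458 of 811 named genes. At T1 itself, 11 of the 18 were positive, against 471 of 811 named genes. Among those negative at T1 were *CIDEC*, at -0.79, and *AQP7*, at -0.44, neither past the threshold. Markers of other cell types moved too. The 4 immune markers had medians of 1.20 at T1 and -0.65 at T2, with 4 of 4 lower at T2. The 8 fibroblast markers had 0.25 at T1 and -0.24 at T2, with 8 of 8 lower at T2. The 3 endothelium and mural cell markers had 0.54 and 0.08, with 2 of 3 lower at T2. The 13 skeletal muscle fibre markers went the other way, at -0.22 and -0.10, with 3 of 13 lower at T2. The part of all these markers in the result was not tested. *ADIPOQ* was at 2.52 at T1 and its difference at T2 was lower by 3.41 (adjusted p 0.00162). *PLIN1* was at 1.93 at T1 and lower by 2.45 at T2 (adjusted p 0.000829). *FABP4* was at 2.66 at T1 and lower by 2.55 at T2 (adjusted p 0.000506). In each of these genes the 4 arrays of T1 and the 4 of T2 did not overlap, and each passed with any T2 array left out. Of the 7106 features, 36 (0.507%) passed in the comparison of T2 with T1, 35 of them lower at T2, and 11 were named (1.36%), 10 of them lower (1.23%). Replicate 2 of T1 had the widest spread of the breed arrays. Its interquartile range was 3.44, against 0.79 to 1.805 on the others of T1, T2 and T3. With that array left out, 47 features passed in this comparison, 46 of them lower at T2, and 33 were shared with the 36.

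The other named genes of that comparison were *CLU*, *S100G*, *EEF1B2*, *RTN4* and *MGST1*, which were lower at T2 than at T1, and *PDK4*, which was higher. *CLU*, a secreted chaperone, was at -0.91 at T2 and 1.95 at T1, a change of -2.86 (adjusted p 0.00459), and at -0.88 at T3. *S100G*, a calcium-binding protein, was at -0.59 at T2 and 2.27 at T1 (adjusted p of the change 0.00205), where replicate 3 gave no value. *EEF1B2*, a subunit of the translation elongation factor 1 complex measured by 1 clone, was at 0.28 at T2 and 3.51 at T1 (adjusted p of the change 0.000506). *RTN4*, a protein of the endoplasmic reticulum with 28 clones, was at 0.26 at T2 and 2.10 at T1 (adjusted p of the change 0.00712). *MGST1*, a microsomal glutathione transferase measured by 1 clone, was at 0.05 at T2 and 3.12 at T1 (adjusted p of the change 0.00712). Its T1 arrays ran from 1.77 to 4.54. *PDK4* encodes the kinase that shuts off pyruvate dehydrogenase and so spares glucose. Its ratios at T2 were 0.38, 0.72, 2.04 and 0.76, a mean of 0.98 (SE 0.28, adjusted p 0.151), against -1.60 at T1 (adjusted p 0.033), and the change of 2.57 had an adjusted p of 0.0182. That change passed in 2 of the 4 fits that left out 1 T2 array.

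The arrays between times gave the same sign of change as the fit for 6 of the 10 named genes measured on both, and the opposite sign for 4, namely *PFDN5*, *PLIN1*, *S100G* and *EEF1B2*. *PLIN1* had a log2 ratio of T2 over T1 of 2.11 in Japanese Black and 0.46 in Holstein. *S100G* had 2.10 in Japanese Black and 0.92 in Holstein, and *EEF1B2* 1.47 in Japanese Black and 0.55 in Holstein. For *FABP4* and *ADIPOQ* the values were 0.56 and 0.18 in Japanese Black, against 1.43 and 0.86 in Holstein, the sign of the fit. *MGST1* had no value on the Holstein array.

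No lipogenic enzyme passed the threshold at T2. Of 10 measured members of 31 listed, 6 were positive and 4 negative, the median was 0.24 and the values ran from -0.61 to 0.95. Without replicate 1 that median was -0.39, so that its direction changed with 1 array left out. The medians on the single arrays were 0.10, 0.03, -0.21 and 0.60. *FASN*, the fatty acid synthase, had 3.51, 1.57, -2.88 and 1.60 on its 1 clone. *THRSP*, a regulator of lipogenesis, had 0.37, 1.05, 0.25 and 1.50, a mean of 0.79 (SE 0.67, adjusted p 0.748), and *DGAT2*, which makes the last step to triglyceride, had -0.67, -0.48, -0.29 and -0.64, a mean of -0.52 (adjusted p 0.39).

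No named gene was higher past the threshold at T2, and the genes given here had a positive ratio on every array and either the smallest p among such genes or a place among the smallest p of their list. *CA3*, the carbonic anhydrase of slow fibres, had 0.57, 1.10, 1.26 and 0.85, a mean of 0.94 (SE 0.20, adjusted p 0.0876), and 13 of its 17 clones were positive on every array. *MYL2*, the regulatory light chain of slow myosin, had 0.44, 1.15, 0.355 and 0.52, a mean of 0.61 (SE 0.17, adjusted p 0.144), with 27 of its 31 clones positive on every array. It was at 1.07 at T3 (adjusted p 0.0441). *MYOT*, a protein of the Z-disc, was at 0.54 (adjusted p 0.121), *LMOD3*, which nucleates thin filaments, at 0.87 (adjusted p 0.123), and *CMYA5*, another Z-disc protein, at 0.60 (adjusted p 0.202). *PPP1R3C*, which targets protein phosphatase 1 to glycogen, had 0.79, 0.67, 1.40 and 0.55, a mean of 0.85 (adjusted p 0.0857). *PFKFB3*, which makes an activator of glycolysis, was at 0.82 (adjusted p 0.149). *AGPAT5*, an acyltransferase of phospholipid and triglyceride synthesis, had 0.98, 0.77, 1.45 and 0.69, a mean of 0.97 (adjusted p 0.0716). *MYL12A*, a light chain of non-muscle myosin, was at 0.77 (adjusted p 0.0876), *IGFBP5*, an insulin-like growth factor binding protein, at 0.66 (adjusted p 0.177), and *SELENOW*, a selenoprotein of muscle, at 0.56 (adjusted p 0.299). The remaining positive genes were *CREG1* at 0.69, *YTHDF1* at 1.30, *ATP5MG* at 0.87, *PDE4DIP* at 0.53, *PSMB4* at 0.41 and *SCN4B* at 1.61, with adjusted p of 0.113 to 0.249. Of all features 26.6% had the same sign on every T2 array, so that such agreement alone sets none of these genes apart. Among negative genes below the threshold, *PIK3C3*, the lipid kinase of autophagy, had -0.88, -1.01, -2.05 and -2.14, a mean of -1.52 (adjusted p 0.0716), and *LOC524507* was at -0.58 (adjusted p 0.128).

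Fibre-type and contractile lists held no gene past the threshold. Of 9 slow fibre genes, 6 were positive and 3 negative with a median of 0.19 (-0.033 without replicate 2), and of 9 fast fibre genes, 4 were positive and 5 negative with a median of 0.00. The 23 sarcomere and Z-disc genes had 13 positive and 10 negative members and a median of 0.10, with -0.017 to 0.19 when single arrays were left out. *ACTA1*, the actin of skeletal muscle with 86 clones, had -0.23, 0.31, -0.32 and -0.46 and an interval of -0.69 to 0.34. *MYL1*, a light chain of fast myosin, was at 0.35 with an interval of -0.12 to 0.81, and *CKM*, the muscle creatine kinase, at -0.49 with an interval of -1.44 to 0.45. Glycolysis and glycogen genes were split into 9 positive and 9 negative, with a median of 0.03 (-0.14 to 0.17 with single arrays left out). The lists of complex I, complexes II and III, cytochrome c oxidase, ATP synthase and the citric acid cycle had medians of -0.06, 0.02, 0.09, 0.08 and -0.20.

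Ribosomal protein genes lay slightly lower in Japanese Black as a list, and none passed on its own. Of 49 measured genes, 38 were negative and 11 positive, with a median of -0.19, beside 3534 negative and 3572 positive among all features. The median was negative on each array, at -0.21, -0.14, -0.22 and -0.16, and it was -0.11 at T1 and -0.08 at T3. Over all named genes the medians on the same T2 arrays were -0.007, -0.009, -0.14 and 0.009. In 18 of the 49 genes the ratio was negative on every T2 array, and in 1 it was positive on every array, against 15.5% and 12.2% of the named genes. The smallest p belonged to *RPS21*, at -0.57 (SE 0.19, adjusted p 0.245), *RPS29*, at -0.41 (adjusted p 0.402), and *RPL35*, at -0.38 (adjusted p 0.451). Leaving out single T2 arrays moved the median between -0.28 and -0.10.

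**Figure D4:**
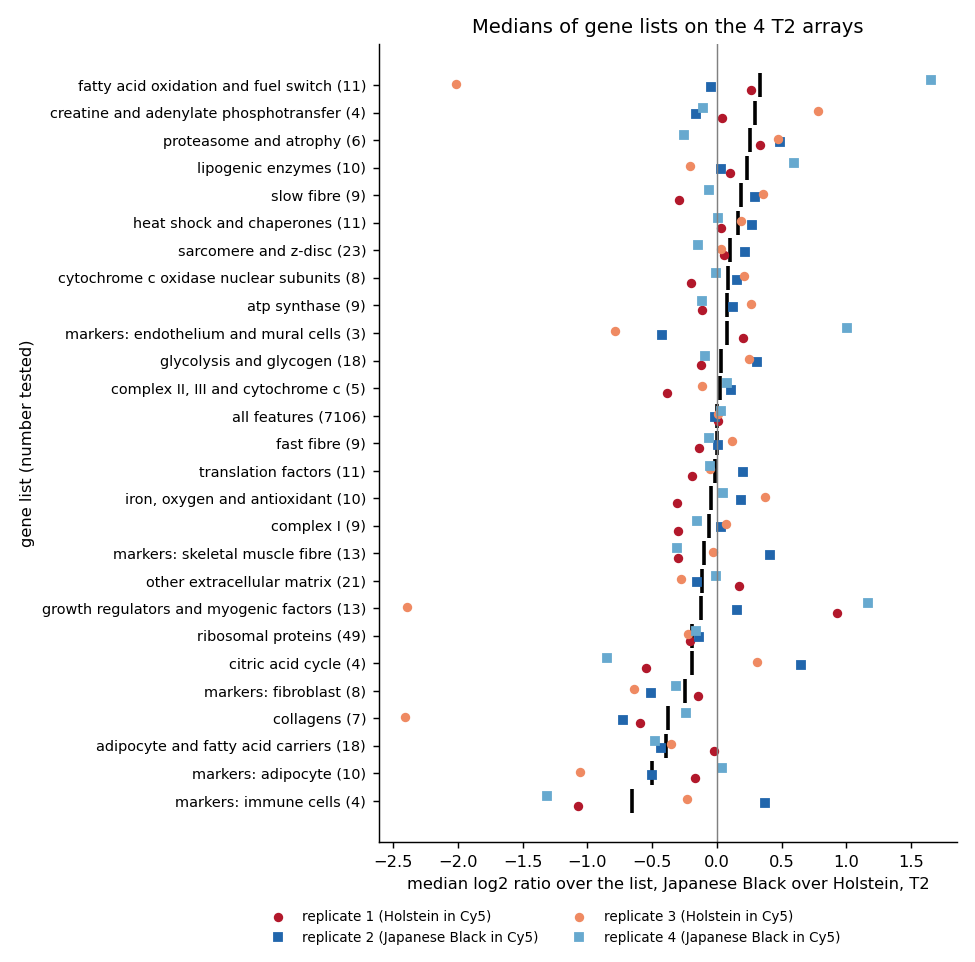
Median log2 ratio of Japanese Black over Holstein of each gene list on the 4 T2 arrays (points) and over the fitted values (black bars), beside the same for all features. The fitted medians of collagens and adipocyte lists lie below 0, ribosomal proteins lie below 0 on all 4 arrays with little spread, and several lists scatter widely on replicates 3 and 4.

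Markers of other cell types gave these values beside the results above, and their part in the results was not tested. The 10 measured adipocyte markers had a median of -0.50, with 7 negative and none past the threshold at T2, against 3 that were higher at T1, where 9 named genes were (1.11%). The 4 immune markers had a median of -0.65, with *C1QA*, a complement gene of macrophages, at -1.07, 0.52, -1.49 and -1.54 (adjusted p 0.354). The 13 skeletal muscle fibre markers had a median of -0.10, with 4 positive and 9 negative, and ranged from -0.64 to 0.61, and the 3 of endothelium and mural cells had a median of 0.08. The lists of blood and nerve markers had no measured member.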

How the data were processed

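The deposited values were log2 ratios for each array element, used as the authors gave them, with array medians away from 0. They were read as Cy5 over Cy3, a direction that the deposited table does not state. How spots were quantified and normalised on these arrays is not given in the sources used here. Values of 16.61, the highest the table holds, were treated as missing. The median of each array was then subtracted, and ratios were signed as Japanese Black over Holstein. Of 19200 elements, 4304 carried 1 gene name, 180 several and 14716 none in the array annotation, and 4286 of the 4304 matched reference bovine symbols. Elements of a gene, and duplicate spots of other clones, were averaged. Features needed values on at least 3 of 4 T2 arrays and 9 of 12 arrays in all.

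The 12 arrays were fitted with limma 3.58.1 in R 4.3.3, with a breed term per time and a dye term (8 residual degrees of freedom, prior 1.64), and p-values were adjusted over 7106 features. On simulated data for the T2 comparison over 7106 features, the model recovered 39 of 100 features that differed by 1 on the log2 scale and 85 of 100 that differed by 2, and called 7 unchanged features.

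The genes named were up to 12 in each direction past the threshold, filled by smallest p among genes of 1 sign on every T2 array, the 3 smallest p of every list, and the adipocyte and lipogenic genes, of which the text names a part. *COL3A1*, *COL4A1*, *COL6A2*, *COL12A1*, *VIM*, *FN1*, *ACTA1*, *C1QA*, *S100G*, *RTN4* and *MGST1* were added after their values were seen. Members and lists were chosen with earlier results of these data known. Alternatives covered centring, scaling, filters, the arrays and terms of the fit, array weights, single elements and left-out arrays. A further 123 columns of both deposited tables were not used. Plots were drawn with matplotlib 3.10.9.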

Additional observations from a re-analysis of the deposited data

Results flagged for a closer look

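The breed difference, Japanese Black over Holstein, was lower at T2 than at T1 past the threshold for *PFDN5* (-2.82), *COL1A1* (-2.44), *CLU* (-2.86), *ADIPOQ* (-3.41), *PLIN1* (-2.45), *FABP4* (-2.55), *EEF1B2* (-3.23), *S100G* (-2.86), *RTN4* (-1.84) and *MGST1* (-3.07), and higher for *PDK4* (2.57), as tested by the contrast of the 2 times in limma. It was lower at T2 than at T3 for *PFDN5* (-2.86) and *COL1A1* (-2.38) by the same test. The unreplicated arrays between T2 and T1 gave the opposite sign for *PFDN5*, *PLIN1*, *S100G* and *EEF1B2*, 4 of the 10 genes measured on both.

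Of 52 gene results with 4 values at T2, 4 had an array far from the others, where chance alone gives about 1 in 20. The gap to the nearest array was 0.876 of the whole range for *PDE4DIP* and 0.852 for *PSMB4*, in both of which replicate 2 was highest. It was 0.847 for *SELENOW*, where replicate 2 was highest, and 0.879 for *RPS29*, where replicate 1 was lowest. None of the 26 list medians had such an array.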

How the results depend on the processing

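Of the 6 named genes past the threshold at T2, no alternative turned the direction, and 34 of 107 gene values under alternatives lost the call. Fitted on the 4 T2 arrays alone, all 6 lost it and no feature passed, against 20 in the main comparison. The count at T2 was 13 without centring, 164 with arrays scaled to a common spread (76 higher, 88 lower), 223 of 3958 among features on all 12 arrays (117 higher, 106 lower), 12 with at least 1 array per dye orientation (none higher), 49 with 18 arrays (7 higher, 42 lower), 243 with array weights (105 higher, 138 lower) and 332 of 14792 single elements (172 higher, 160 lower). It was 6 to 11 with 1 T2 array left out, 4 without replicates 1 and 2, and 3 without replicates 3 and 4. Without replicate 2 of T1 it was 27 (8 higher, 19 lower). The cause of these shifts was not tested.

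For T2 against T1, 36 features became 11 with scaling, 13 with 18 arrays, 19 without replicates 1 and 2, 16 without replicates 3 and 4, and 289 single elements. For T2 against T3, 5 became 3 without centring, 140 with scaling, 158 on all 12 arrays, 2 with 1 array per orientation, 65 with 18 arrays, 2 without the dye term, 209 with array weights, 106 without replicates 1 and 2, 0 without replicates 3 and 4, 186 single elements, and 0 to 48 with 1 array left out.

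With the replicate number as a block in place of the dye term, 11 features passed at T2, 10 of them shared with the 20, 34 against T1 and 99 against T3. Residuals of same-numbered arrays of different times correlated at -0.48 to 0.42 (12 pairs, 2 over 0.1). Those of differently numbered arrays ran from -0.63 to 0.61, so that this check could not decide whether the numbers pair the arrays.

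Genes near 0 or with 1 clone changed sign. *COL6A2* was 0.18 without replicates 1 and 2, *COL12A1* 0.35 with 18 arrays and 0.076 without replicates 1 and 2, *FN1* -0.0025 with scaling and -0.052 without replicates 3 and 4, *FASN* -0.64 without replicates 1 and 2, *MGST1* -0.17 and *ACTA1* 0.039 without replicates 3 and 4. With 1 array left out, *COL3A1* ran from -0.16 to 0.018, *COL4A1* from -2.80 to 0.60, *COL5A3* from -0.030 to 3.76, *COL12A1* from -0.70 to 0.30, *FN1* from -0.049 to 0.12, *FASN* from -0.59 to 1.81 and *MGST1* from -0.14 to 0.24. Of 26 list medians, 16 took both signs. The medians ran from -0.70 to 0.017 for collagens, -0.033 to 0.17 for slow fibre genes, -0.52 to -0.19 for adipocyte genes, -0.39 to 0.30 for lipogenic enzymes (-0.43 without replicates 1 and 2), -0.14 to 0.11 for fast fibre genes, -0.090 to 0.14 for complex I, -0.28 to -0.10 for ribosomal proteins (-0.15 without centring) and -0.11 to 0.19 for translation factors. Dim spots could not be told from bright ones in the ratios.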
